A study of Mus musculus with 4 samples.

Results

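The inhibitors of cyclin-dependent kinases (CDKs), together with p53 and the MDM proteins, are 10 genes of the 55356 in the expression table. They are the INK4 genes *Cdkn2a*, *Cdkn2b*, *Cdkn2c* and *Cdkn2d*, the CIP/KIP genes *Cdkn1a*, *Cdkn1b* and *Cdkn1c*, and *Trp53*, *Mdm2* and *Mdm4*. The genes were named by symbol, and the group was chosen by the values of *Cdkn2a*, which was nearly absent in 1 of the lines. The comparison of the lines for *Cdkn2a* is therefore a description. Of the 10 genes, 8 had a mean of at least 10 normalized counts over the libraries and entered the counts below, as did 12483 genes in all. *Cdkn2b* and *Cdkn1c* lay below that mean and are given by their values alone.

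RNA came from macrophages grown from the bone marrow of *MK2*-KO mice and immortalized, so both lines carry the knockout. The cells had received a retrovirus with *MK2* and GFP (i*MK2*-KO +*MK2*, here MK2 cells, given as wild type in the labels) or the empty vector with GFP alone (i*MK2*-KO +*GFP*, here GFP cells), and GFP-positive cells of both were sorted. Each line was left untreated (UT) or treated with IL-1α (5 ng/mL, 1 h). There was 1 library per condition and 4 in all, so no difference has a replicate check and none was tested. An additive fit of line and treatment, which would take the treatments as replicates of a line, was not run, and line, culture and library cannot be told apart. How the cells were immortalized is not given in the sources used here.

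The normalized counts of the libraries summed to between 24891906 and 25733071. *Mapkapk2*, which encodes MK2, had normalized counts of 561 (UT) and 1585 (IL-1α) in GFP cells and 38357 and 38141 in MK2 cells, and so followed the labels. All 10 macrophage marker genes were expressed, and their sum ranged from 119642 to 134723. Singly, 5 of them were lower and 4 higher beyond counting error in UT GFP cells, among them *Mertk* with 421 against 1093 and *Mpeg1* with 3305 against 1560, and their part in the differences below was not tested. Of 22 markers of other cell types, 16 were at 0 in all libraries, among them the fibroblast genes *Col1a1* and *Pdgfra*, and 20 did not exceed 3 in any. *Elane*, a neutrophil gene, had 2 to 5 normalized counts. *Zbtb46*, a dendritic cell gene, had 23 and 18 in GFP and 104 and 115 in MK2 cells. Its part in the differences below was not tested.

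INK4 proteins bind CDK4 and CDK6 and keep them from pairing with D-type cyclins, so that the retinoblastoma protein stays active and cells do not enter S phase. CIP/KIP proteins act on a wider range of cyclin-CDK complexes. p53 is a transcription factor that is activated by DNA damage and other stress and induces *Cdkn1a*. MDM2 is the ubiquitin ligase that marks p53 for degradation, and it is itself a p53 target. MDM4 is related to MDM2, binds p53 and blocks its transcriptional activity. *Cdkn2a* joins both arms, because alternative first exons of this locus give p16INK4a, which binds CDK4 and CDK6, and p19ARF, which binds MDM2. The loss of *Cdkn2a* or *Trp53* is a common step in the immortalization of mouse cells in culture.

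The promoters of the *Cdkn2a* and *Cdkn2b* locus are shown because the differences between the lines were most extreme there. *Cdkn2a* has 2 starts, and a value per gene does not separate their transcripts. The sequences are those of RefSeq on GRCm38.p6 upstream of each start, on the minus strand of chromosome 4, with CG dinucleotides in capitals. The ARF start of *Cdkn2a* (chr4:89294654-89294853) has a dense run of CG, whereas the p16INK4a start (chr4:89282193-89282392) and *Cdkn2b* (chr4:89311040-89311239) have fewer.
Cdkn2a, ARF start: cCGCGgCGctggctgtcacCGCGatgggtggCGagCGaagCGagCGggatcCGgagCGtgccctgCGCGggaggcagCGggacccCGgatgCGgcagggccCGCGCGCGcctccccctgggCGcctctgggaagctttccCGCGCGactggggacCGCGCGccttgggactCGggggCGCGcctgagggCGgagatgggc
Cdkn2a, p16INK4a start: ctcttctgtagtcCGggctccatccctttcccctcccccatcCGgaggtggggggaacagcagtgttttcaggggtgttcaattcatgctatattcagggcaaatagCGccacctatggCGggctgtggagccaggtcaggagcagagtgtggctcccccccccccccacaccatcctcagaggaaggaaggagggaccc
Cdkn2b: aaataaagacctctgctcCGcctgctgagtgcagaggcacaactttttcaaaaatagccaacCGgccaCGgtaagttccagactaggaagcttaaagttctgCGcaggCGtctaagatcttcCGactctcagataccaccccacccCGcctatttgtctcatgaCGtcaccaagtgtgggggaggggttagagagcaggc

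RefSeq lists 13 starts for 9 of the 10 genes, each with a window of 250 bases before and 50 after it. The window at the ARF start held 45 CG dinucleotides, and 1.93% of all 32851 promoters held at least as many. The p16INK4a window held 12, and 39.6% of promoters held at least as many. The *Cdkn2b* window held 18, and 29.7% of promoters held at least as many. The median promoter had 7. The NF-κB motif GGGNNTTTCC, searched on both strands, was found in 1 of the 13 windows, that of *Trp53*, and in 1.63% of all promoters. It is shown because *Trp53* was higher after IL-1α in GFP cells, and IL-1α is known to activate NF-κB. The windows of *Cdkn1a*, *Mdm2* and *Mdm4*, which were also higher after IL-1α in GFP cells, held no match. The part of the motif in the responses was not tested. In the following sequence (GRCm38.p6, chr11:69580274-69580363, plus strand) the motif is in capitals. It begins 5 bases before the RefSeq start and spans it. A match of letters is a description and shows no binding.
Trp53: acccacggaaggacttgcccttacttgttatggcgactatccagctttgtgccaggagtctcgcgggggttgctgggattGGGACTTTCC

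**Figure D1:**
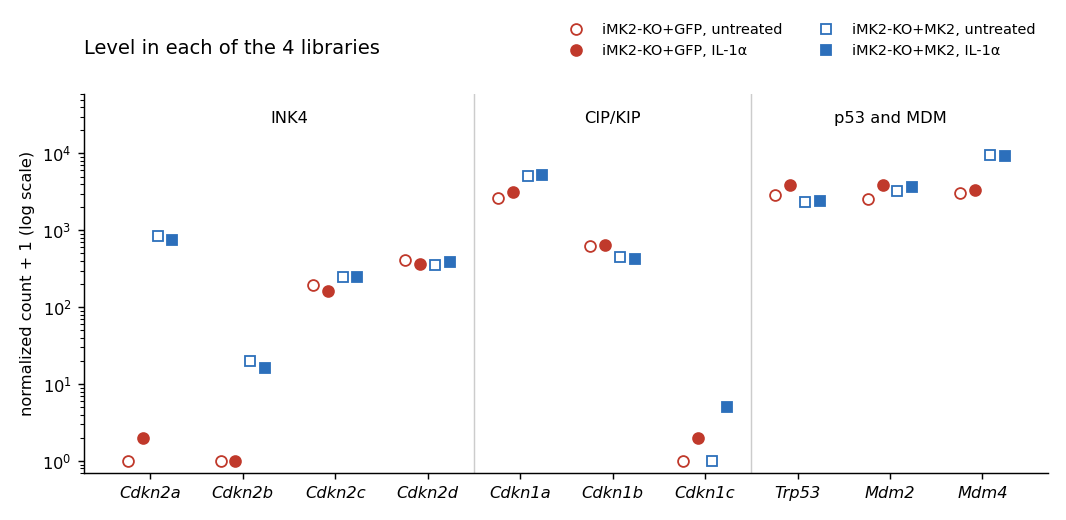
Normalized count + 1 on a log scale (vertical axis) of the 10 genes (horizontal axis) in the 4 libraries, with circles for GFP and squares for MK2 cells, open for UT and filled for IL-1α. *Cdkn2a* and *Cdkn2b* sit at 0 or 1 normalized count in GFP cells, and *Mdm4* lies at 3038 and 3318 there against 9495 and 9320 in MK2 cells.

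In the values of the table, the lines differed most in *Cdkn2a*, *Cdkn2b* and *Mdm4*, all lower in GFP cells. *Cdkn1a* and *Cdkn2c* were lower to a smaller extent, and *Cdkn1b* and *Trp53* were higher. For each pair of libraries the log2 ratio of value + 1 was given a 95% Clopper-Pearson interval, with each normalized count taken as 1 read, and a ratio whose interval excludes 0 is beyond counting error. This interval covers counting error alone and not the spread between cultures. It is narrower at higher levels, and the shares over all genes given here and below are not matched for level. In UT cells 2 of the 8 genes were at least 2-fold lower in GFP cells (*Cdkn2a* and *Mdm4*) and 0 were at least 2-fold higher, against 5.23% and 3.5% of all genes. Beyond counting error, 5 of 8 were lower and 2 of 8 higher, against 26.9% and 30.8% of all genes. Of all genes beyond counting error 53.3% were higher, and 42.3% when libraries were scaled to *Gapdh*. After IL-1α the same 2 genes were at least 2-fold lower and 0 higher, against 5.56% and 4.15%. Beyond counting error 4 were then lower and 3 higher, against 26.3% and 33.7%, and the share of higher genes among all those called was 56.2%, or 37.5% with *Gapdh*. The libraries of the lines did not overlap in 6 of the 8 genes, against 68.1% of all genes. Because *Cdkn2a* led to the choice of the genes, nothing is read from these counts for the group.

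**Figure D2:**
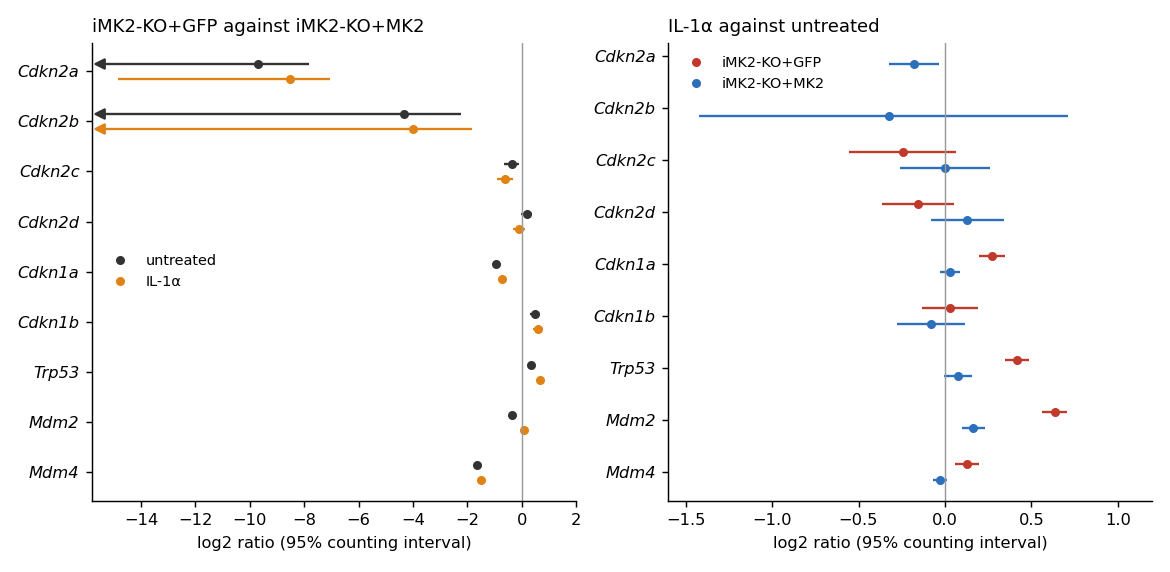
Log2 ratios with 95% counting intervals (horizontal axis) of 9 genes (vertical axis, *Cdkn1c* left out), on the left between the lines in UT and IL-1α-treated cells and on the right between IL-1α and UT in each line. Arrowheads mark intervals without a lower end, since a library was at 0. *Mdm4* lies at -1.64 and -1.49 on the left, and on the right *Trp53* and *Mdm2* lie at 0.41 and 0.63 in GFP cells. *Cdkn2a* and *Cdkn2b* have no point for the response of GFP cells.

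*Cdkn2a* (chromosome 4, 89192708 to 89212890 in the table, which gives no genome build) was at 0 (UT) and 1 (IL-1α) normalized counts in GFP cells. It had 839 and 742 in MK2 cells. Both libraries of the first line were thus at or near 0, and both of the second far above. In UT cells *Cdkn2a* was at least 280-fold lower, set against the 3 counts that a count of 0 allows, and the counting interval of the ratio, which also takes in the error of the 839, reaches down to 227-fold. After IL-1α the ratio of the values 742 and 1 was 742-fold, with a counting interval of 133 to 29346. In MK2 cells the level after IL-1α was slightly below that in UT cells, with a log2 ratio of -0.18 (-0.32 to -0.03). In GFP cells both values were under the 3 counts, and no fold is given. None of the 1139 31-base stretches of the *Cdkn2a* transcripts (GENCODE on GRCm38) occurs in a transcript of another gene, *Cdkn2b* included.

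*Cdkn2b* encodes p15INK4b, the INK4 protein known for its induction by TGF-β, and lies 11.6 kb from *Cdkn2a* (89224536 to 89229276). It had 0 normalized counts in both GFP libraries and 19 and 15 in the MK2 libraries. The libraries of the lines did not overlap, at a low level. Set against 3 counts, *Cdkn2b* was at least 6.33-fold lower in UT cells and at least 5-fold lower after IL-1α, and the counting intervals reach down to 4.67- and 3.59-fold. In MK2 cells the response to IL-1α lay within counting error (-0.32, -1.42 to 0.71).

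*Cdkn2c* encodes p18INK4c and lies on chromosome 4 as well (109518073 to 109524386). It had 193 and 163 normalized counts in UT and IL-1α-treated GFP cells and 249 in both libraries of MK2 cells. Both GFP values were the lower ones. The log2 ratio was -0.37 (-0.65 to -0.09) in UT cells and -0.61 (-0.91 to -0.32) after IL-1α, and so beyond counting error in both. The response to IL-1α was -0.24 (-0.55 to 0.06) in GFP and 0.00 (-0.26 to 0.26) in MK2 cells, within counting error.

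*Cdkn2d* encodes p19INK4d (chromosome 9, 21199706 to 21202703). It had 404 and 362 normalized counts in GFP and 357 and 390 in MK2 cells, and the libraries of the lines overlapped. The ratio between the lines was 0.18 (-0.03 to 0.39) in UT cells and -0.11 (-0.32 to 0.10) after IL-1α. These intervals, and those of both responses to IL-1α, include 0. *Cdkn2d* was the INK4 gene with the smallest difference between the lines in UT cells.

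*Cdkn1a* encodes p21, the CIP/KIP inhibitor that p53 induces (chromosome 17, 29309950 to 29319701). It had 2612 and 3157 normalized counts in UT and IL-1α-treated GFP cells and 5065 and 5170 in MK2 cells. Both GFP libraries were below both others. In UT cells *Cdkn1a* was 1.94-fold lower (log2 ratio -0.96, -1.02 to -0.89), which just misses 2-fold and passes it when libraries are scaled to *Gapdh* (-1.01). After IL-1α it was 1.64-fold lower (-0.71, -0.78 to -0.65). IL-1α was followed by a higher level in GFP cells (0.27, 0.20 to 0.35), whereas the response in MK2 cells lay within counting error (0.03, -0.03 to 0.09).

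*Cdkn1b* encodes p27, which holds cyclin E-CDK2 inactive in resting cells (chromosome 6, 134897364 to 134902476). Its direction was opposite to that of *Cdkn1a*. It had 625 and 638 normalized counts in GFP and 445 and 421 in MK2 cells, without overlap of the lines. *Cdkn1b* was 1.40-fold higher in UT cells (log2 ratio 0.49, 0.31 to 0.67) and 1.51-fold higher after IL-1α (0.60, 0.42 to 0.78). The responses to IL-1α, 0.03 (-0.13 to 0.19) and -0.08 (-0.28 to 0.12), were within counting error. *Cdkn1c*, the gene of p57 (chromosome 7, 143012076 to 143014787), is imprinted and is known mainly from development. It was close to 0 throughout, with 0 and 1 normalized counts in GFP and 0 and 4 in MK2 cells, and differences were not detectable at this depth.

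*Trp53* encodes p53 (chromosome 11, 69471185 to 69482699). It had 2888 normalized counts in UT and 3849 in IL-1α-treated GFP cells, and 2303 and 2426 in MK2 cells. Both GFP values were the higher ones, and the highest was that after IL-1α. The log2 ratio between the lines was 0.33 (0.25 to 0.41) in UT cells and 0.67 (0.59 to 0.74) after IL-1α. IL-1α was followed by a higher level in GFP cells (0.41, 0.34 to 0.48), and in MK2 cells the response was within counting error (0.08, -0.01 to 0.16). The difference of these responses was 0.34. Of the 31-base stretches of *Trp53* 10.1% occur in other genes, mainly its pseudogene *Trp53-ps*, which had between 10 and 13 normalized counts in every library.

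*Mdm2* (chromosome 10, 117524780 to 117546663) had 2515 normalized counts in UT and 3903 in IL-1α-treated GFP cells, and 3261 and 3656 in MK2 cells. The GFP libraries were therefore the lowest and the highest of the 4. In UT cells *Mdm2* was lower in GFP cells (log2 ratio -0.37, -0.45 to -0.30). After IL-1α it was slightly higher (0.09, 0.03 to 0.16), a direction that turned to -0.01 with scaling to *Gapdh*. The response to IL-1α was 0.63 (0.56 to 0.71) in GFP cells and 0.16 (0.10 to 0.23) in MK2 cells, with a difference of 0.47.

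*Mdm4* (chromosome 1, 132887222 to 132958299) had 3038 and 3318 normalized counts in UT and IL-1α-treated GFP cells and 9495 and 9320 in MK2 cells. The lines were clearly apart, with little change after IL-1α in either. *Mdm4* was 3.12-fold lower in UT GFP cells (log2 ratio -1.64, -1.70 to -1.58) and 2.81-fold lower after IL-1α (-1.49, -1.55 to -1.43). Its response to IL-1α was 0.13 (0.06 to 0.20) in GFP and -0.03 (-0.07 to 0.01) in MK2 cells. *Mdm4* shares 13.6% of its 31-base stretches with other genes, mainly the pseudogene *Mdm4-ps* on the X chromosome. *Mdm4-ps* had between 1 and 4 normalized counts, so few reads were assigned to it in either line.

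Among the responses to IL-1α, 4 of the 8 genes were higher beyond counting error in GFP cells (*Cdkn1a*, *Trp53*, *Mdm2* and *Mdm4*), against 20% of all genes, and 0 were lower, against 12.3%. These 4 had the highest levels, with means of 2866.5 to 6292.75 normalized counts. The means of the other 4 were 213.5 to 532.25, and small ratios are called more readily at high levels. The direction over all genes depended on the scaling, with 2502 higher and 1531 lower as deposited, 1612 and 2371 with library totals and 1588 and 2411 with *Gapdh*. In MK2 cells 1 was higher (*Mdm2*), against 11.4%, and 1 lower (*Cdkn2a*), against 8.23%. At least 2-fold, 1 gene was counted in GFP cells, *Cdkn2a* with 0 and 1 normalized counts, which is no difference that can be measured. The background was 2.24% higher and 1.58% lower. In MK2 cells 0 of the 8 genes reached 2-fold, against 0.889% higher and 1.03% lower. For *Cdkn1a*, *Trp53*, *Mdm2* and *Mdm4* the counting intervals of the responses in the lines did not overlap as deposited. With scaling to *Gapdh* those of *Mdm4* did. The share of all genes with such intervals was not computed, so nothing is read from this for the group. Without replicates the difference of the responses could not be tested.

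*Mdm4* lies 1.86 Mb from *Mapkapk2*, the gene that was targeted in these mice, and both lines carry that knockout. The neighbourhood of *Mdm4* was examined after its values were seen, and so were those of the other genes except *Cdkn2a* and *Cdkn2c*. Within 2 Mb of *Mdm4* 42 genes had a mean of at least 10, and in UT cells 27 of them were lower and 3 higher in GFP cells beyond counting error. *Mapkapk2*, which MK2 cells also received on the retrovirus, is counted among the 42 and among the 27. The median log2 ratio of the 42 genes was -0.37, compared with 0.02 over all genes. Apart from *Mapkapk2*, 3 of them were at least 2-fold lower. *Slc45a3*, which encodes a membrane transporter, had 1 and 0 normalized counts in GFP and 858 and 920 in MK2 cells. *Kdm5b*, a histone H3K4 demethylase, had 3 and 2 against 464 and 656, and *Gm29103*, which overlaps *Slc45a3*, had 0 and 0 against 31 and 37. In the opposite direction 2 genes were at least 2-fold higher. *Ctse*, the gene of the protease cathepsin E, had 981 and 971 against 231 and 239, and *Gm37084*, which overlaps *Mapkapk2*, had 12 and 30 against 4 and 7. After IL-1α 25 of the 42 genes were lower and 7 higher beyond counting error, with a median of -0.28. At least 2-fold, 5 were then lower, *Mapkapk2* included, and 5 higher.

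The lower values were not limited to the surroundings of *Mdm4*. Over the 746 expressed genes of chromosome 1 the median log2 ratio between the lines was -0.26 in UT cells and -0.24 after IL-1α, and 79.1% of the genes were lower in UT GFP cells. The shift ran along the whole chromosome. In the 17 bins of 10 Mb with at least 20 genes, the median ranged from -0.36 to -0.19. *Mdm4* lay beyond this shift, 1.39 (UT) and 1.25 (IL-1α) below the median of its chromosome on the log2 scale, and in UT cells it ranked 24 from the lowest of these 746 genes. The part of the shift in the *Mdm4* values was not tested.

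**Figure D3:**
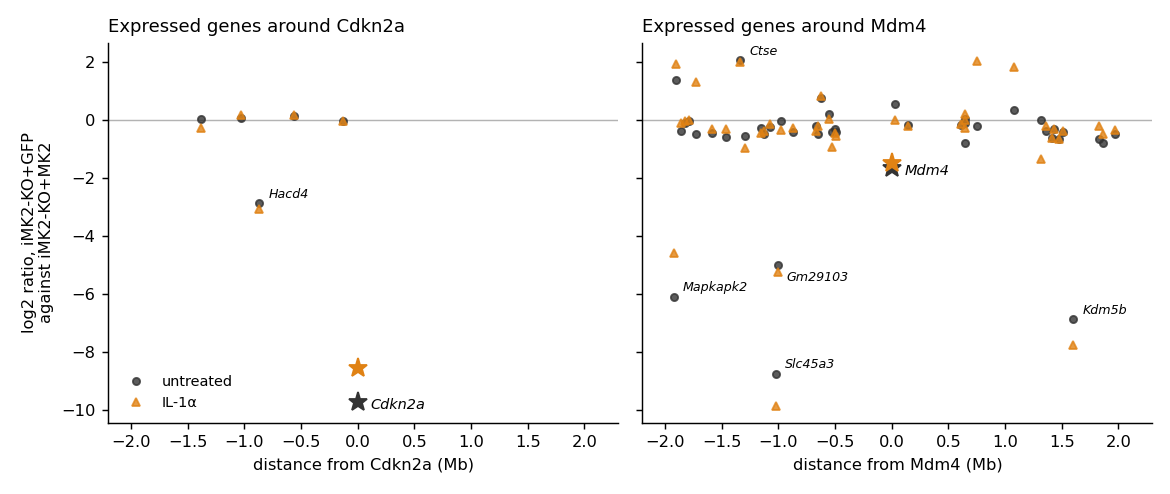
Log2 ratio between the lines (vertical axis) of the expressed genes within 2 Mb of *Cdkn2a* (left) and *Mdm4* (right) by distance in Mb (horizontal axis), with circles for UT, triangles for IL-1α and stars for *Cdkn2a* and *Mdm4* themselves. *Hacd4* is the low gene near *Cdkn2a* at -2.86 in UT cells, while most genes around *Mdm4* lie somewhat below 0.

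**Figure D4:**
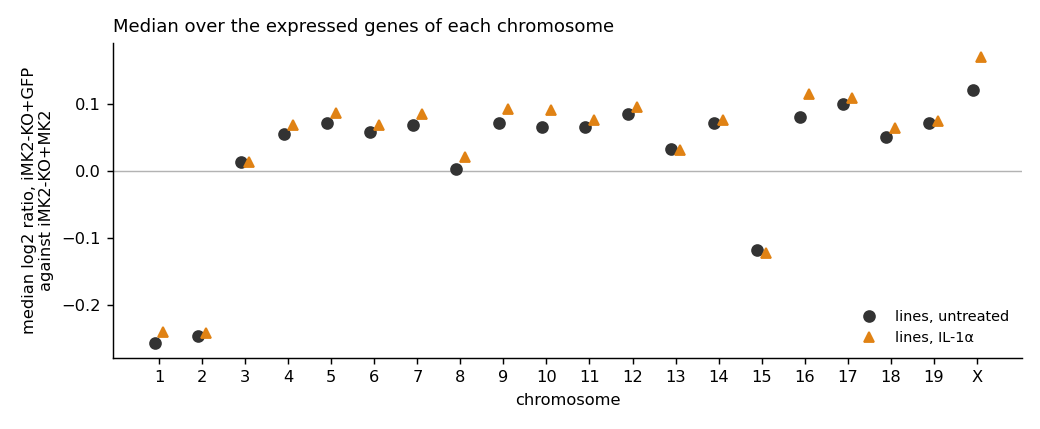
Median log2 ratio between the lines (vertical axis) over the expressed genes of each chromosome (horizontal axis), with circles for UT and triangles for IL-1α. Chromosome 1, with *Mdm4*, lies at -0.26 and -0.24, chromosome 2 at -0.25 and -0.24 and chromosome 15 at -0.12 and -0.12, while all others shown lie above 0.

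*Cdkn2a* and *Cdkn2b* lie on chromosome 4, whose median was 0.05 in UT cells and 0.07 after IL-1α. Of the 85 other genes within 2 Mb of *Cdkn2a* 65 were at 0 in all libraries and 5 had a mean of at least 10. *Mtap*, a gene of the methionine salvage pathway that is often lost together with *CDKN2A* in human tumors, ends 93.4 kb from *Cdkn2a*. It had 4626 and 4661 normalized counts in GFP and 4717 and 4724 in MK2 cells, which gives -0.03 (-0.09 to 0.03) in UT cells as the log2 ratio. The near absence of *Cdkn2a* RNA thus did not extend to *Mtap*. *Hacd4*, an enzyme gene of very long-chain fatty acid synthesis 836 kb away, was lower, with 74 and 52 against 545 and 440 and log2 ratios of -2.86 (-3.25 to -2.53) and -3.06 (-3.52 to -2.66). The other expressed neighbours, *Klhl9* (0.16), *Focad* (0.08) and *Mllt3* (0.03), were close to 0 in UT cells.

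*Cdkn2c* had 23 expressed neighbours with a median of 0.07 in UT cells. Of these 2 were at least 2-fold lower in GFP cells, namely *Zfyve9*, with 7 and 12 against 60 and 52 normalized counts, and *Elavl4*, with 30 and 46 against 139 and 133. The medians around the other 6 genes, *Cdkn2d*, *Cdkn1a*, *Cdkn1b*, *Cdkn1c*, *Trp53* and *Mdm2*, ranged from -0.09 to 0.12. The shift seen around *Mdm4* was thus larger than around any of the others.

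The other components of the pathway were taken from lists. Of the G1 cyclins, their kinases and the retinoblastoma proteins, 10 of 11 genes were expressed. In UT cells 5 were higher and 5 lower in GFP cells beyond counting error, with a median log2 ratio of -0.03, and 0 were at least 2-fold apart. The genes of the kinase CDK4, of CDK2 and of the 3 retinoblastoma proteins were the higher ones. *Cdk4* had 9061 and 9167 against 7489 and 7449 normalized counts, and *Rb1* had 532 and 491 against 386 and 336. The D- and E-type cyclin genes and *Cdk6* were the lower ones in UT cells. *Cdk6* had 1872 and 2152 against 3431 and 3310, *Ccne1* 1520 and 1487 against 2403 and 2285, and *Ccnd1* 3821 and 3114 against 4507 and 4283. *Ccnd2*, the gene of cyclin D2, was at 0 in both GFP libraries and had 20 and 17 normalized counts in the others. After IL-1α 4 of the 10 genes were higher and 4 lower, with a median of 0.02. Over all genes 30.8% were higher and 26.9% lower in UT cells, and 33.7% and 26.3% after IL-1α. The response to IL-1α was beyond counting error in 3 of 10 genes in GFP cells (2 higher, 1 lower) and in 3 of 10 in MK2 cells (0 higher, 3 lower). The shares over all genes were 20% higher and 12.3% lower in GFP cells, and 11.4% and 8.23% in MK2 cells.

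**Figure D5:**
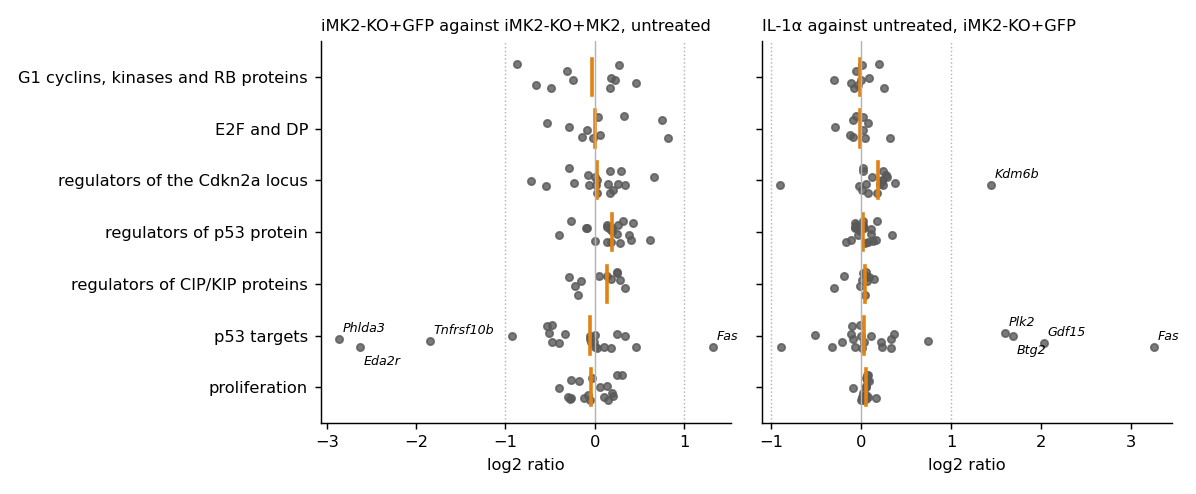
Log2 ratios (horizontal axis) of the expressed genes of 7 lists (vertical axis), on the left between the lines in UT cells and on the right between IL-1α and UT in GFP cells, with 1 point per gene and an orange line at the median. Dotted lines mark 2-fold and genes beyond them are named. The regulators of p53 lie mostly above 0 on the left with a median of 0.19, and *Fas*, *Gdf15*, *Btg2* and *Plk2* stand apart on the right.

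Regulators of the p53 protein include kinases, ubiquitin ligases and ribosomal proteins. All 20 were expressed, 14 were higher and 3 lower in UT GFP cells, and 13 were higher and 1 lower after IL-1α. Of all genes 30.8% were higher and 26.9% lower in UT cells, and 33.7% and 26.3% after IL-1α. The medians were 0.19 and 0.22, and 0 reached 2-fold in either comparison. *Mapkapk3*, the kinase most closely related to MK2, had the highest ratio, with 2072 and 2332 against 1350 and 1440 normalized counts. *Ppm1d*, a phosphatase that acts on p53 and p38, had 630 and 603 against 468 and 499. *Rpl5* and *Rpl11*, ribosomal proteins that bind MDM2, had ratios of 0.17 and 0.18 in UT cells. *Atm*, the kinase of the DNA damage response, was lower in UT (1978 against 2615) and higher after IL-1α (2513 against 2150). After IL-1α 5 of 20 genes were higher and 2 lower in GFP cells, against 20% and 12.3% of all genes. In MK2 cells 6 were higher and 3 lower, against 11.4% and 8.23%.

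Of 24 p53 target genes other than *Cdkn1a* and *Mdm2*, 23 were expressed. In UT cells 10 were lower and 6 higher in GFP cells beyond counting error, with a median log2 ratio of -0.05. After IL-1α 11 were lower and 9 higher, also with a median of -0.05. Over all genes 26.9% were lower and 30.8% higher in UT cells, and 26.3% and 33.7% after IL-1α. At least 2-fold, 3 of the 23 target genes were lower and 1 higher in UT GFP cells, against 5.23% and 3.5% of all genes. The 3 lower ones encode the AKT inhibitor *Phlda3* and the receptors *Eda2r* and *Tnfrsf10b*. *Phlda3* had 193 and 182 against 1408 and 1408 normalized counts. *Phlda3* lies on chromosome 1, as *Mdm4* does. *Eda2r* had 23 and 12 against 147 and 150, and *Tnfrsf10b* 73 and 123 against 265 and 281. These libraries did not overlap between the lines. *Fas*, a death receptor, was at least 2-fold higher in UT cells, at a low level of 24 against 9.

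After IL-1α 4 of the 23 p53 target genes were at least 2-fold higher in GFP cells, and 0 in MK2 cells. The shares over all genes were 2.24% and 0.889%. *Fas* had 24 normalized counts in UT and 236 after IL-1α, *Gdf15* 433 and 1775, *Btg2* 442 and 1429, and *Plk2* 1684 and 5111. The same genes had 9 and 15, 570 and 562, 348 and 401, and 2397 and 2553 in MK2 cells. *Btg2* and *Plk2* are also known as immediate-early genes, and the part of p53 in these responses was not tested. Beyond counting error 10 of 23 genes were higher and 3 lower in GFP cells, and 4 higher and 0 lower in MK2 cells. Of all genes 20% were higher and 12.3% lower in GFP cells, and 11.4% and 8.23% in MK2 cells, so the count in MK2 cells was near that of all genes. The medians of the list were close to 0 (0.03 and 0.02), so the named genes stood apart from the rest of it.

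Regulators of the *Cdkn2a* locus include the Polycomb proteins, which keep it silent. Of 20 genes 18 were expressed, and in UT cells 7 were higher and 4 lower in GFP cells, with a median of 0.02 and 0 at least 2-fold apart. The Polycomb genes *Ezh2* (1817 against 1791 normalized counts) and *Eed* (2014 against 1999) were close to equal in UT cells. *Bmi1* (2107 against 2572) and *Rnf2* (638 against 749) were lower beyond counting error. *Phc1* (165 against 104), *Ring1* (356 against 297), *Phc2* (2120 against 1888) and *Suz12* (5010 against 4518) were higher beyond it. Of the DNA methyltransferases, *Dnmt3a* (5259 against 7650) and *Dnmt3b* (148 against 244) were lower and *Dnmt1* (9424 against 8404) was higher. After IL-1α 13 of the 18 genes were higher and 3 lower, with a median of 0.23, or 0.13 with scaling to *Gapdh*. Over all genes 30.8% were higher and 26.9% lower in UT cells, and 33.7% and 26.3% after IL-1α. *Kdm6b*, a histone H3K27 demethylase, had 335 normalized counts in UT and 909 in IL-1α-treated GFP cells, and 265 and 288 in MK2 cells. It was the gene of this list with at least a 2-fold response. In GFP cells 8 genes were higher after IL-1α and 1 lower, against 20% and 12.3% of all genes. In MK2 cells 2 were higher and 2 lower, against 11.4% and 8.23%. *Cbx8*, a Polycomb gene, was lower after IL-1α in both lines beyond counting error, with 78 against 146 and 91 against 153.

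Of 18 proliferation genes 7 were higher and 7 lower in UT GFP cells beyond counting error, with a median log2 ratio of -0.04 and 0 at least 2-fold apart. After IL-1α 8 were higher and 7 lower, with a median of 0.03. *Mki67*, the gene of the Ki-67 antigen, had 17370 and 18152 against 14620 and 15001 normalized counts, and *Aurka*, a mitotic kinase, had 3223 and 3037 against 4244 and 4231. Differences in both directions were also seen over all genes, with 30.8% higher and 26.9% lower in UT cells and 33.7% and 26.3% after IL-1α. In GFP cells 7 of the 18 proliferation genes were higher and 1 lower after IL-1α, against 20% and 12.3% of all genes. In MK2 cells 1 was higher and 0 were lower, against 11.4% and 8.23%.

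The genes with the pattern most like *Cdkn2a* over the 4 libraries, by the Euclidean distance of log2(value + 1), were *Dmwd*, *Slc45a3*, *Bahcc1*, *Tiam1* and *Nyap2*. *Dmwd* (chromosome 7, distance 1.13) had 0 and 0 normalized counts in GFP and 633 and 585 in MK2 cells. *Bahcc1* (chromosome 11, 1.53) had 0 and 1 against 386 and 358. *Tiam1* (chromosome 16, 1.59) had 0 and 0 against 431 and 434. *Nyap2* (chromosome 1, 1.63) had 0 and 1 against 352 and 359. Near absence of RNA in 1 line was thus also seen in genes of other chromosomes, which were picked by this pattern. The neighbours of *Dmwd*, *Bahcc1*, *Tiam1* and *Nyap2* were not examined, and the genes with this pattern were not counted. *Slc45a3*, at a distance of 1.45, is one of the neighbours of *Mdm4* described above.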

How the data were processed

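The RNA sequencing data comprised 4 libraries, 1 per condition. The labels describe poly(A) selection and paired 38-base reads, whereas the paper's methods describe ribo-depletion and single 75-base reads. The authors deposited a score per gene, DESeq2-normalized counts rounded to whole numbers. The submitters' processing notes name DESeq2 and GRCm38, but the table's positions differ from GRCm38 by -446 to 219 kb for the members, and its build is not given in the sources used here. Every column of the table was used. A count model had been planned and was not applied to these normalized values.

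Log2 ratios were computed on value + 1 with exact 95% Clopper-Pearson intervals (Python 3.11.15, scipy 1.17.1), with 1 normalized count taken as 1 read, and the calculation was tested on simulated data. The calls were a ratio of at least 2-fold and an interval without 0, among genes whose mean was 10 or more. Genes named are the 10 members, genes of the 12 lists, expressed genes within 2 Mb of *Cdkn2a*, the 5 genes nearest to it in pattern, and *Mapkapk2*. Members and lists were chosen with earlier results of these data known. Values by chromosome and around the other members were added after seeing the data, and the named neighbours of *Mdm4* and *Cdkn2c* were chosen by their values. Promoters are RefSeq sequences. Alternatives were pseudocounts of 0.5 and 5, scaling by TMM (trimmed mean of M values), library total or *Gapdh*, minimum means, a 1.5-fold threshold and 1.3 or 0.77 reads per normalized count.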

Additional observations from a re-analysis of the deposited data

Results flagged for a closer look

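In 3 genes IL-1α was followed by values of opposite direction in the lines, and with 1 library per condition the difference was not tested. The response of *Cdkn2d* in GFP cells minus that in MK2 cells was -0.29 on the log2 scale, and the interval of each response included 0. The corresponding difference was 0.11 for *Cdkn1b*, again with both intervals including 0. The direction of its response in GFP cells turned with scaling to library totals (-0.01) or *Gapdh* (-0.02), so that both lines then had the same direction. For *Mdm4* it was 0.15, and the interval of the response excluded 0 in GFP cells but included it in MK2 cells.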

How the results depend on the processing

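No paired analysis was possible because the comparisons come from no test and the conditions, with 1 library each, share no more than 1 replicate number. Leaving out a library was not possible. Between the lines, the log2 ratios of the 8 expressed members kept their direction with every pseudocount and scaling, except that *Mdm2* after IL-1α turned to -0.007717 with scaling to *Gapdh*. That scaling moved the ratios after IL-1α by -0.10, and the share of higher genes among those beyond counting error from 53.3 to 42.3% in UT cells and from 56.2 to 37.5% after IL-1α. It also moved list medians after IL-1α, to -0.07919 for the G1 list, 0.1156 for regulators of p53, -0.2145 for regulators of CIP/KIP proteins, -0.06922 for proliferation and -0.1056 for macrophage markers. With all genes above 0 the UT median of the G1 list was -0.2382, since *Ccnd2* then entered. Relative to its chromosome, chosen after seeing the data, *Mdm4* was at -1.39 and -1.25, *Cdkn1a* at -1.06 and -0.82 and *Mdm2* after IL-1α at 0.004.

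The number of members at least 2-fold apart after IL-1α was 4 with any value above 0 and 6 at 1.5-fold. For the response of GFP cells it was 0 with a pseudocount of 5 and with each of the 3 scalings and 2 with any value above 0 or at 1.5-fold, and for MK2 cells 1 with any value above 0. Over all genes, 5758, 583 and 2163 differed between the UT lines with any value above 0, a mean of at least 50 and 1.5-fold, and 5744, 689 and 2416 after IL-1α. The responses gave 4692, 185 and 1075 in GFP and 4308, 42 and 660 in MK2 cells, and 307 and 130 with a pseudocount of 5. The main counts were 1090, 1212, 476 and 239.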

Other observations

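The E2F and DP genes, some of whose proteins are released when the retinoblastoma protein is phosphorylated, were all expressed. In UT cells 3 of the 10 were higher and 3 lower in GFP cells beyond counting error, with a median log2 ratio of 0.01. After IL-1α 4 were higher and 3 lower. The shares over all genes were 30.8% and 26.9% in UT cells, and 33.7% and 26.3% after IL-1α. *E2f6*, a repressor, had 2077 and 1951 normalized counts against 1229 and 1224 in MK2 cells, and *E2f7*, also a repressor, had 87 and 109 against 49 and 59. *Tfdp1*, the gene of the partner DP1, was the other way round with 5135 and 5432 against 7469 and 7161. Among the activators, *E2f3* (1154 and 1193 against 1171 and 1161) was within counting error. *E2f1* (1353 and 1270 against 1493 and 1521) was lower in GFP cells beyond it, both in UT cells and after IL-1α. *E2f2*, also an activator, was higher in GFP cells beyond counting error, with 1569 and 1514 against 1251 and 1318. The response to IL-1α was beyond counting error in 3 of 10 genes (1 higher, 2 lower) in GFP and in 1 (lower) in MK2 cells. Over all genes 20% were higher and 12.3% lower in GFP cells, and 11.4% and 8.23% in MK2 cells.

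Of the 11 regulators of CIP/KIP proteins, 4 were higher and 4 lower in UT GFP cells, with a median of 0.14, and 5 were higher and 5 lower after IL-1α, with a median of -0.11. Both medians were the ratio of a single gene, *Foxo3*, which had 1661 and 1453 normalized counts against 1511 and 1571. The change of sign is therefore that of this gene, while the counts stayed even. Over all genes 30.8% were higher and 26.9% lower in UT cells, and 33.7% and 26.3% after IL-1α. *Skp2*, the F-box protein that marks p27 for degradation, had 1493 and 1591 against 1825 and 1875 normalized counts, and its cofactor *Cks1b* had 1659 and 1726 against 1394 and 1382. *Foxo1*, a transcription factor that induces *Cdkn1b*, had 160 and 130 against 126 and 159. IL-1α was followed by 1 higher and 1 lower gene in GFP cells, against 20% and 12.3% of all genes. In MK2 cells 2 were higher and 0 lower, against 11.4% and 8.23%.

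The shift of chromosome 1 was not the only one. Over the 1012 expressed genes of chromosome 2 the median log2 ratio between the lines was -0.25 in UT cells and -0.24 after IL-1α, and 77.1% of the genes were lower in UT GFP cells. Over the 487 genes of chromosome 15 it was -0.12 in both, and 69.2% were lower. The medians of the 17 other chromosomes ranged from 0.00 to 0.12 in UT cells and from 0.01 to 0.17 after IL-1α. The responses to IL-1α showed no such split, with chromosome medians from 0.00 to 0.05 in GFP and from 0.00 to 0.02 in MK2 cells. None of the 10 members lies on chromosome 2 or 15.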
